A study of Homo sapiens with 40 samples.

Results

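The genes described here are 36 genes of the cell division cycle, followed by symbol through every group of an RNA sequencing study of human embryonic stem cells. They are 36 of the 60651 genes in the count tables. They were taken by name, with earlier results of these data known. Of the 36 genes, 15 act in DNA replication (MCM2, MCM3, MCM4, MCM5, MCM6, MCM7, PCNA, RRM1, RRM2, CDC6, CDT1, GINS2, POLA1, PRIM1 and TYMS) and 21 are described with mitosis (PCLAF, MKI67, TOP2A, CDK1, CCNB1, CCNB2, CCNA2, BUB1, BUB1B, AURKA, AURKB, PLK1, KIF11, KIF20A, CDC20, CENPA, CENPE, CENPF, TPX2, BIRC5 and UBE2C). PCLAF stands in the mitosis set although it encodes a PCNA-binding protein of the replication fork. All 36 genes passed the filter on low values in every comparison.

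The study asked how far UTY, encoded on the Y chromosome, and its X-linked paralog UTX, the histone H3 lysine 27 demethylase encoded by KDM6A, can stand in for each other. Undifferentiated cells of the line SEES3 were sequenced as wild type (WT), UTX knockout (UTXKO), knockout of both genes (DKO), UTY knockout (UTYKO) and a control labelled for the UTYKO (UTYKO control). SEES3 cells named Endo, Meso and Ecto, for endoderm, mesoderm and ectoderm, were sequenced as WT, XKO, YKO and DKO, and cells of the line H9 as WT and as UTXKO sets numbered 3 and 4. These 20 groups held 2 libraries each. The labels name no agent, age or number of days in culture, and they do not say whether paired libraries came from separate cultures or clones, so p-values measure the spread between these libraries, which may be technical.

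Replication origins are licensed when CDC6 and CDT1 load the MCM helicase, which then unwinds DNA for the polymerases, and their genes are classically driven by E2F factors late in G1 phase. Mitotic genes are transcribed later, in G2, largely through CCAAT boxes and the cell cycle genes homology region (CHR), which is bound by complexes that share the MuvB core. Embryonic stem cells are known for a short G1 phase and high levels of both programmes.

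The promoters of the genes carried these different elements. Windows of 300 bases around RefSeq start sites (GRCh38.p14, 250 bases before to 50 after) were given for 30 of the 36 genes, and both strands were searched. Of these genes, 6 had more than 1 start site, and a match at any start site was counted. An E2F site (TTTGGCGC, TTTCCCGC, TTTGCCGC, TTTCGCGC or TTCCCGCC, of which TTTCCCGC and TTCCCGCC can overlap) was found for 12 of 13 replication genes and 3 of 17 mitosis genes, beside 6.67% of the 27305 genes in the table. A CHR (TTTGAA or TTCGAA) was found for 2 of 13 replication genes and 11 of 17 mitosis genes, beside 19.5% of all genes. CCAAT was found for 10 of 13 and 15 of 17, beside 39.7%. RRM2 was the replication gene without an E2F match. CDK1, CENPA and PCLAF were the mitosis genes with one. PCLAF had it only at the start site printed here, and its other window (chr15:64387638-64387937) held no E2F, CHR or CCAAT match. MCM7 and PCNA also had E2F matches at only 1 of their start sites. The stretches printed here show the contrast between both sets, with PCLAF, the gene of the mitosis set with the largest difference in DKO cells, between them; they lie upstream of the start site, are written 5′ to 3′ on the gene's strand, and have matches to any of the searched motifs, on either strand, in capitals.
MCM6 (chr2:135876494-135876613, minus strand): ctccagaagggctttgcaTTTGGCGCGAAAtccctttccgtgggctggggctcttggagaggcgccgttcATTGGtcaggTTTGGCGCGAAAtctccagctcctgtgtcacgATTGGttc
CDT1 (chr16:88803729-88803788, plus strand): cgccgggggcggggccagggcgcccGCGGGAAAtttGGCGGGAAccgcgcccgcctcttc
PCLAF (chr15:64381442-64381571, minus strand): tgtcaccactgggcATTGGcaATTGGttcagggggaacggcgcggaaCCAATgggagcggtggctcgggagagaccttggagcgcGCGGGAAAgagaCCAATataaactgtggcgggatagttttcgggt
CCNB2 (chr15:59105016-59105145, plus strand): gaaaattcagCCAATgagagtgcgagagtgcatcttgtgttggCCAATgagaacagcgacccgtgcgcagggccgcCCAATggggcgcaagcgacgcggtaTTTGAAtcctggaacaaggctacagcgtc
PLK1 (chr16:23678789-23678888, plus strand): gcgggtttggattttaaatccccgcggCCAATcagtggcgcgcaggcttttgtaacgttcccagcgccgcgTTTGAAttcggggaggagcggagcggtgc
KIF11 (chr10:92593050-92593129, plus strand): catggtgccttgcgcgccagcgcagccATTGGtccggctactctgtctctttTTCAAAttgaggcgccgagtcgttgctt
In MCM6 a pair of 12-base blocks holds overlapping E2F matches on both strands, whereas CCNB2, PLK1 and KIF11 show CCAAT upstream of a CHR. A match is a description of letters and not of a bound site.

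The undifferentiated libraries held between 5781357 and 14973722 counts, and the members' own counts ran from 68 to 11203 per library. KDM6A lay at 88.2 and 106 CPM (a gene's count scaled to the library's total) in UTXKO and at 78.2 and 82.3 in DKO, beside 98.2 and 85.8 in WT. UTY lay at 59.7 and 51 CPM in UTYKO and at 57 and 58.4 in DKO, beside 34.5 and 24.5 in the UTYKO control. The labels do not give the edited position, so these totals over whole genes do not check the knockout labels. In H9, UTY was at or below 0.644 TPM in each of the 6 libraries. KDM6A there had a log2 difference of 0 ± 0.147 (SE) between UTXKO and WT, so its total does not check those labels either. The layers are described here without KDM6A or UTY levels. TPM, a share of the library's transcripts scaled by transcript length, is used below for the layers and H9; tables were normalised separately and no test was made between them.

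**Figure D1:**
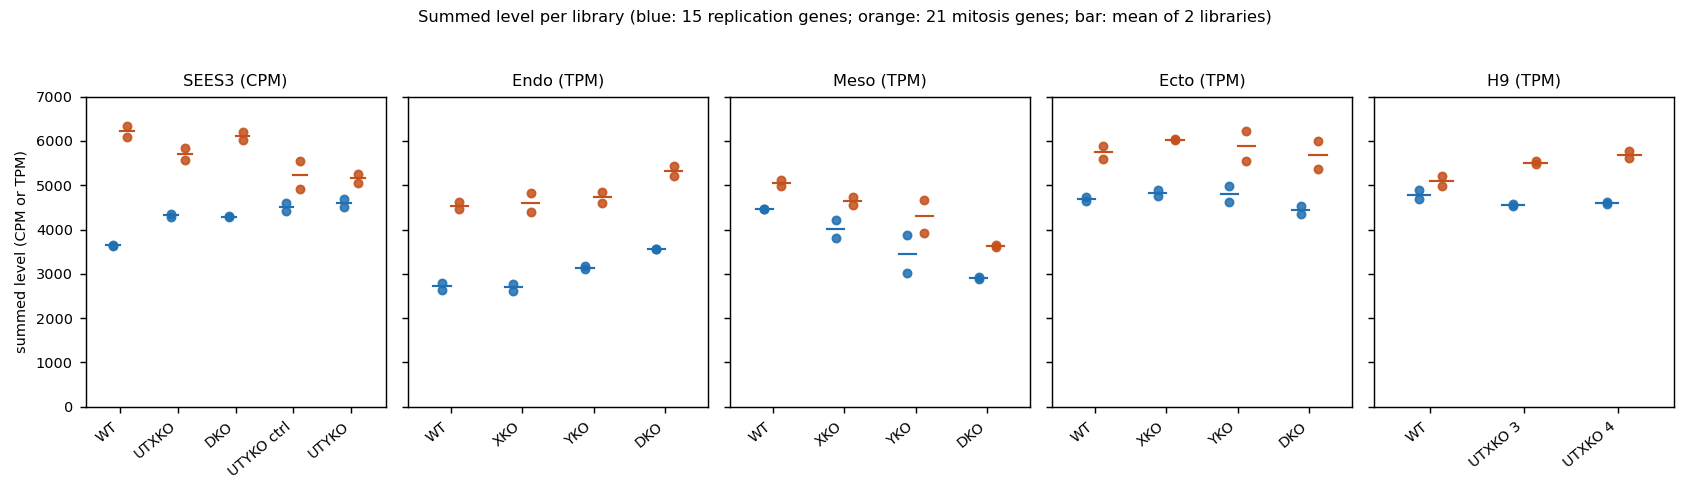
Summed level of the 15 replication genes (blue) and the 21 mitosis genes (orange) in each library, in CPM for undifferentiated SEES3 cells and in TPM for the other tables, with bars at the mean of 2 libraries. In SEES3 the replication sums of both WT libraries lie below those of the 8 other libraries, and both sums are higher than in WT in Endo DKO and lower in Meso DKO.

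In undifferentiated UTXKO cells, 7 of 15 replication genes were called higher than in WT, and few mitosis genes were called. Of the 15 replication genes, 7 rose and 1 fell (adjusted p under 0.05, edgeR's quasi-likelihood test with Benjamini-Hochberg adjustment over all genes tested), and of the 21 mitosis genes 1 rose and 1 fell. These 10 calls among 36 genes stand beside 12.5% of all 13810 genes tested, of which 6.2% were higher and 6.31% lower. The median log2 difference was 0.26 over the replication genes, -0.08 over the mitosis genes and -0.002 over all genes. Differences were small: the replication genes that rose did so by 0.32 to 0.49 on the log2 scale.

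Among the licensing factors, CDC6, which recruits the helicase to origins, was at 132 and 133 CPM in WT and 178 and 174 CPM in UTXKO, a log2 difference of 0.41 ± 0.08 (SE; adjusted p = 0.000919). CDT1, its partner in loading, went the other way, from 151 and 153 CPM to 124 and 123 CPM (-0.30 ± 0.08; adjusted p = 0.0163), a call lost under 5 of 10 alternatives, DESeq2 and 2 of the 4 libraries left out among them. The WT and UTXKO libraries did not overlap for either gene, which adds no support to calls made on these same libraries. GINS2, a subunit of the GINS complex that activates the helicase, rose from 71.2 and 70.5 CPM to 94.9 and 94.6 CPM (0.42 ± 0.09; adjusted p = 0.0018). Of the 6 helicase subunits MCM4 and MCM5 rose, by 0.32 ± 0.08 and 0.33 ± 0.08, and the other four had positive differences of 0.15 to 0.21 that did not pass. PCNA, the sliding clamp of DNA polymerases, rose by 0.33 ± 0.08, and POLA1, the catalytic subunit of polymerase alpha, by 0.43 ± 0.09. Of 10 alternatives, 4 lost the call of PCNA, 3 that of MCM5 and 2 each those of MCM4 and POLA1. All of these were lost in 1 fit of all 10 undifferentiated libraries, where 3 replication genes rose, beside 171 of 15191 genes tested. Of the 10 members called in UTXKO, 0 held under every alternative, the UTYKO control as reference included. RRM2, the regulated subunit of ribonucleotide reductase, had the smallest adjusted p of the replication genes: 267 and 270 CPM in WT against 364 and 391 CPM in UTXKO (0.49 ± 0.08; adjusted p = 0.000133). Its partner subunit RRM1 was at 198 and 200 against 203 and 211 CPM and did not pass.

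The mitosis genes that passed were PCLAF and KIF20A, a kinesin of the central spindle. PCLAF was low, at 11.6 and 6.71 CPM in WT, and at 16.6 and 25.5 CPM in UTXKO (1.26 ± 0.21; adjusted p = 0.0001). This call was lost under DESeq2, and with the UTYKO control as the reference in place of WT (0.10 ± 0.22). KIF20A fell from 229 and 233 CPM to 187 and 174 CPM (-0.35 ± 0.08, adjusted p = 0.00436), a call lost under 3 of 10 alternatives. Cyclins, mitotic kinases and centromere proteins did not pass; AURKA, for example, was at 146 and 153 CPM in WT and 140 and 146 CPM in UTXKO.

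In undifferentiated DKO cells more members of both sets were called. Of the 15 replication genes 11 rose and 2 fell, and of the 21 mitosis genes 2 rose and 8 fell, 23 calls in all, beside 46.9% of the 14637 genes tested (23.5% higher, 23.4% lower); against a background that high, the share of members called is not by itself particular to them. The medians were 0.24 over the replication genes, -0.12 over the mitosis genes and 0.004 over all genes. The ratio of the replication sum to the mitosis sum was 0.573 and 0.6 in WT, 0.746 and 0.768 in UTXKO and 0.693 and 0.712 in DKO. UTXKO and DKO share the same WT libraries, so their differences are not independent of each other.

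TYMS, thymidylate synthase, was at 35.7 and 33 CPM in WT and 56.1 and 56.8 CPM in DKO (0.67 ± 0.09; adjusted p = 2.15e-06), the largest rise of the replication set. Its exons overlap those of ENOSF1 and TYMSOS on the other strand. The strand setting of the counting is not given in the sources used here, so the reads may not all be those of TYMS. Such an overlap is found for 9 members. Besides TYMS and PRIM1 these are MCM2, MCM7, RRM1, GINS2, CCNA2, PLK1 and KIF20A, and the limit holds for all of them in every group. MCM2 rose by 0.38 ± 0.07, GINS2 by 0.43 ± 0.07, POLA1 by 0.42 ± 0.07 and CDC6 by 0.39 ± 0.07. CDT1 fell to 113 and 125 CPM (-0.41 ± 0.07) and PRIM1, the primase subunit that starts each Okazaki fragment, to 40.2 and 40.1 CPM from 52.9 and 43.5 CPM (-0.29 ± 0.10). PRIM1 shares exon positions with HSD17B6 on the other strand and with NACA on its own, and is uncertain in the same way. Its call was lost under 6 of 10 alternatives, DESeq2 included, and with 3 of the 4 libraries left out. MCM4, MCM5 and MCM7 were also called higher, and each of these calls was lost with 2 of the 4 libraries left out.

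PCLAF showed the largest difference of all members, at 45.4 and 48.4 CPM in DKO (2.38 ± 0.15; adjusted p = 1.09e-11). The gene (ENSG00000166803; GRCh38, chr15:64364311-64387687, minus strand) was higher in both DKO libraries than in each of the 8 other undifferentiated libraries, where it ran from 6.71 to 25.5 CPM. Of the 8 mitosis genes that fell, BUB1B, the spindle checkpoint kinase BUBR1, went from 301 and 292 CPM to 215 and 202 CPM (-0.56 ± 0.06; adjusted p = 2.65e-07). The calls of CDK1 and BUB1 were each lost with 2 of the 4 libraries left out, and that of CCNB2 with 3 of the 4. BUB1 and CCNB2 were also not called by DESeq2. BUB1B shares exons with the readthrough gene BUB1B-PAK6. KIF20A fell by 0.42, AURKA by 0.37, AURKB by 0.35, PLK1 by 0.27, CDK1 by 0.24, CCNB2 by 0.19 and BUB1 by 0.16 on the log2 scale. CENPF, a kinetochore protein, rose by 0.20 ± 0.07, a call lost in 1 fit of all 10 undifferentiated libraries. MKI67, the gene of the proliferation marker Ki-67, was at 622 and 597 CPM in WT and 662 and 607 CPM in DKO and did not pass.

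**Figure D2:**
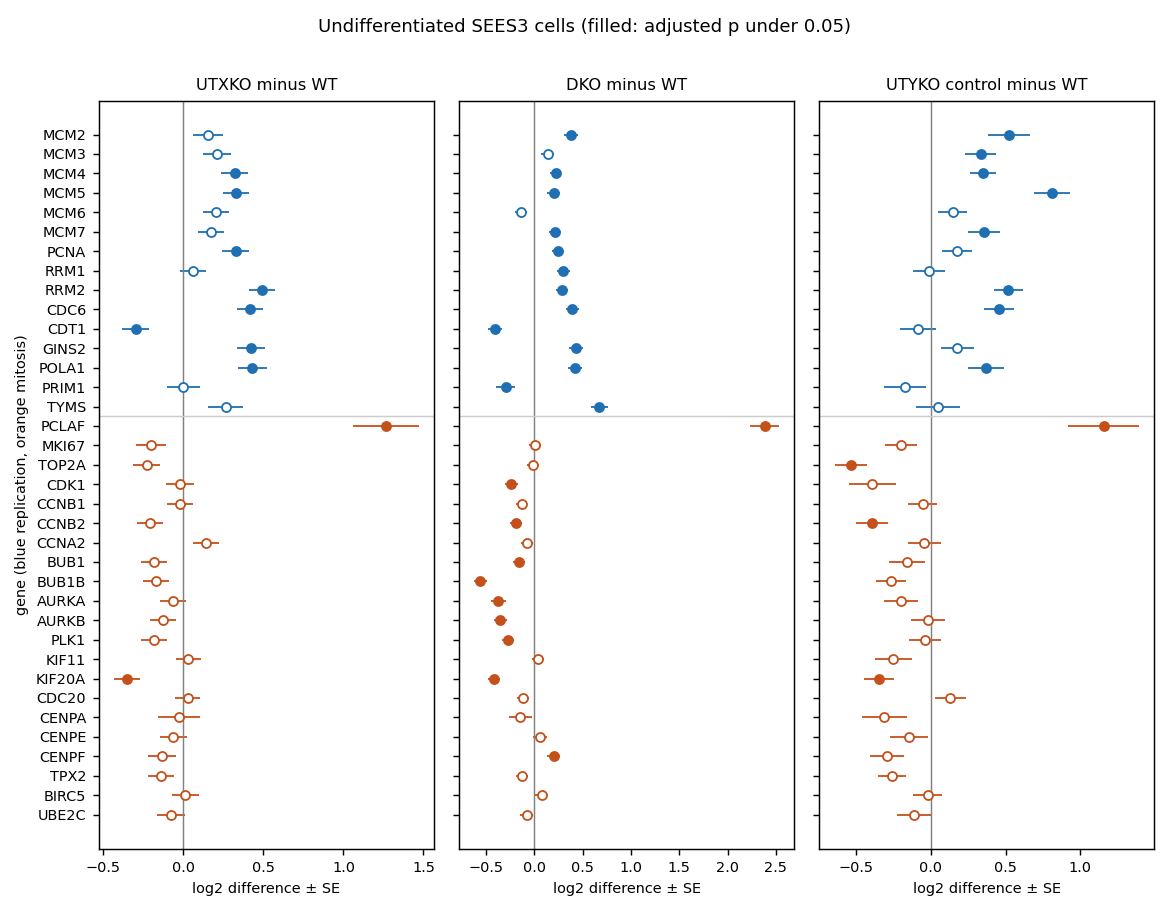
Log2 differences with SE bars for the 36 genes in UTXKO, DKO and the UTYKO control, each against the same 2 WT libraries; filled points have an adjusted p under 0.05 and each panel has its own horizontal scale. Most replication genes lie to the right of 0 in each panel, the UTYKO control included, and PCLAF lies farthest right in each.

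The replication genes were also higher in the UTYKO control than in WT, where no knockout is labelled on either side. Of the 15 replication genes 8 rose and 0 fell, and of the 21 mitosis genes 1 rose and 3 fell, beside 19.1% of the 15191 genes tested (10.3% higher, 8.79% lower). The medians were 0.33, -0.20 and 0.004 in the same order. MCM5 rose most among the replication genes, from 242 and 255 CPM to 371 and 485 CPM (0.81 ± 0.12; adjusted p = 0.000106), RRM2 by 0.52 ± 0.10 and CDC6 by 0.45 ± 0.10. TOP2A, the topoisomerase that decatenates chromosomes, fell from 1068 and 1007 CPM to 810 and 603 CPM (-0.54 ± 0.11; adjusted p = 0.00192). The control libraries themselves differed more than other pairs, with a chi-square of 16.8 per degree of freedom over genes, against 1.68 to 3.98 for the 4 other groups.

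Both WT libraries lay below all 8 other undifferentiated libraries for 9 of the 15 replication genes (CDC6, GINS2, MCM3, MCM4, MCM5, MCM7, PCNA, POLA1 and RRM2), beside 9.52% of all genes tested. They lay above all 8 for 4 of the 21 mitosis genes (BUB1B, CCNB2, KIF20A and TPX2), beside 9.62%. Summed over the replication genes, the WT libraries were at 3627 and 3656 CPM, and the 8 others ran from 4279 to 4691 CPM. The sums of the mitosis genes were 6334 and 6094 CPM in WT, 6203 and 6012 CPM in DKO, and 5556 and 4904 CPM in the UTYKO control.

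With the UTYKO control as the reference in place of WT, in 1 fit of the 10 libraries chosen after the data were seen, 1 member was called in UTXKO, beside 5.35% of all genes, and 8 in DKO, beside 30.8%. In UTXKO the median over the replication genes was -0.02, and the single call was a fall of MCM5 (-0.48 ± 0.12; adjusted p = 0.0238). In DKO the replication median was -0.10, and MCM2, PCNA, CDC6, RRM2, GINS2 and POLA1 were no longer called. PCLAF (1.23 ± 0.20), TYMS (0.65 ± 0.14), RRM1 (0.34 ± 0.11) and CENPF (0.52 ± 0.11) were higher here as they were in the separate fit against WT. In the fit of 10 libraries CENPF was not called against WT. TOP2A was called here (0.55 ± 0.11) but not against WT, and MCM5, MCM6 and AURKB fell. Whether the rise of the replication genes belongs to the knockouts or to these WT libraries cannot be told apart for the genes that are also high in the control.

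UTYKO did not differ detectably from its own control in any member: 0 of 36 were called by edgeR, beside 0.606% of 14684 genes tested, and 0 by DESeq2; 2 had an unadjusted p under 0.05. Beside so low a share over all genes, 0 calls is not particular to the members. The control libraries also differed more than other pairs, which limits what this comparison can detect. CDC6 was at 180 and 176 CPM in the control and 195 and 209 CPM in UTYKO. PCLAF was at 23.9 and 15.5 CPM and at 11.8 and 9.98 CPM, a log2 difference of -0.86 that did not pass.

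DKO against UTXKO asks what loss of UTY adds to loss of UTX. WT is not part of this difference, but the WT libraries were in the fit and so entered its filter, scaling and estimate of the spread. The comparison gave 14 calls beside 34.9% of all genes (18.3% higher, 16.6% lower). Of these, 3 replication genes rose and 3 fell, and 4 mitosis genes rose and 4 fell. PCLAF (1.13 ± 0.15; adjusted p = 1.36e-06), TYMS (0.43 ± 0.10), RRM1 (0.27 ± 0.07), CENPF (0.36 ± 0.08) and TOP2A (0.24 ± 0.07) were higher in DKO. MCM6 (-0.32 ± 0.07) and BUB1B (-0.36 ± 0.07) were lower. DESeq2 called 8 of the members here. The effect of DKO was also compared with the sum of the effects of both single knockouts, UTYKO being set against its own control. That control is a group other than the WT used for DKO and UTXKO, and its PCLAF was itself called higher than in WT. For PCLAF the sum includes the UTYKO difference of -0.86, which did not pass. Of the 36 members only PCLAF departed from that sum, by 1.98 ± 0.31 (adjusted p = 0.00012), beside 12.4% of all genes; under each alternative, every library left out included, its adjusted p was at most 0.00355.

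**Figure D3:**
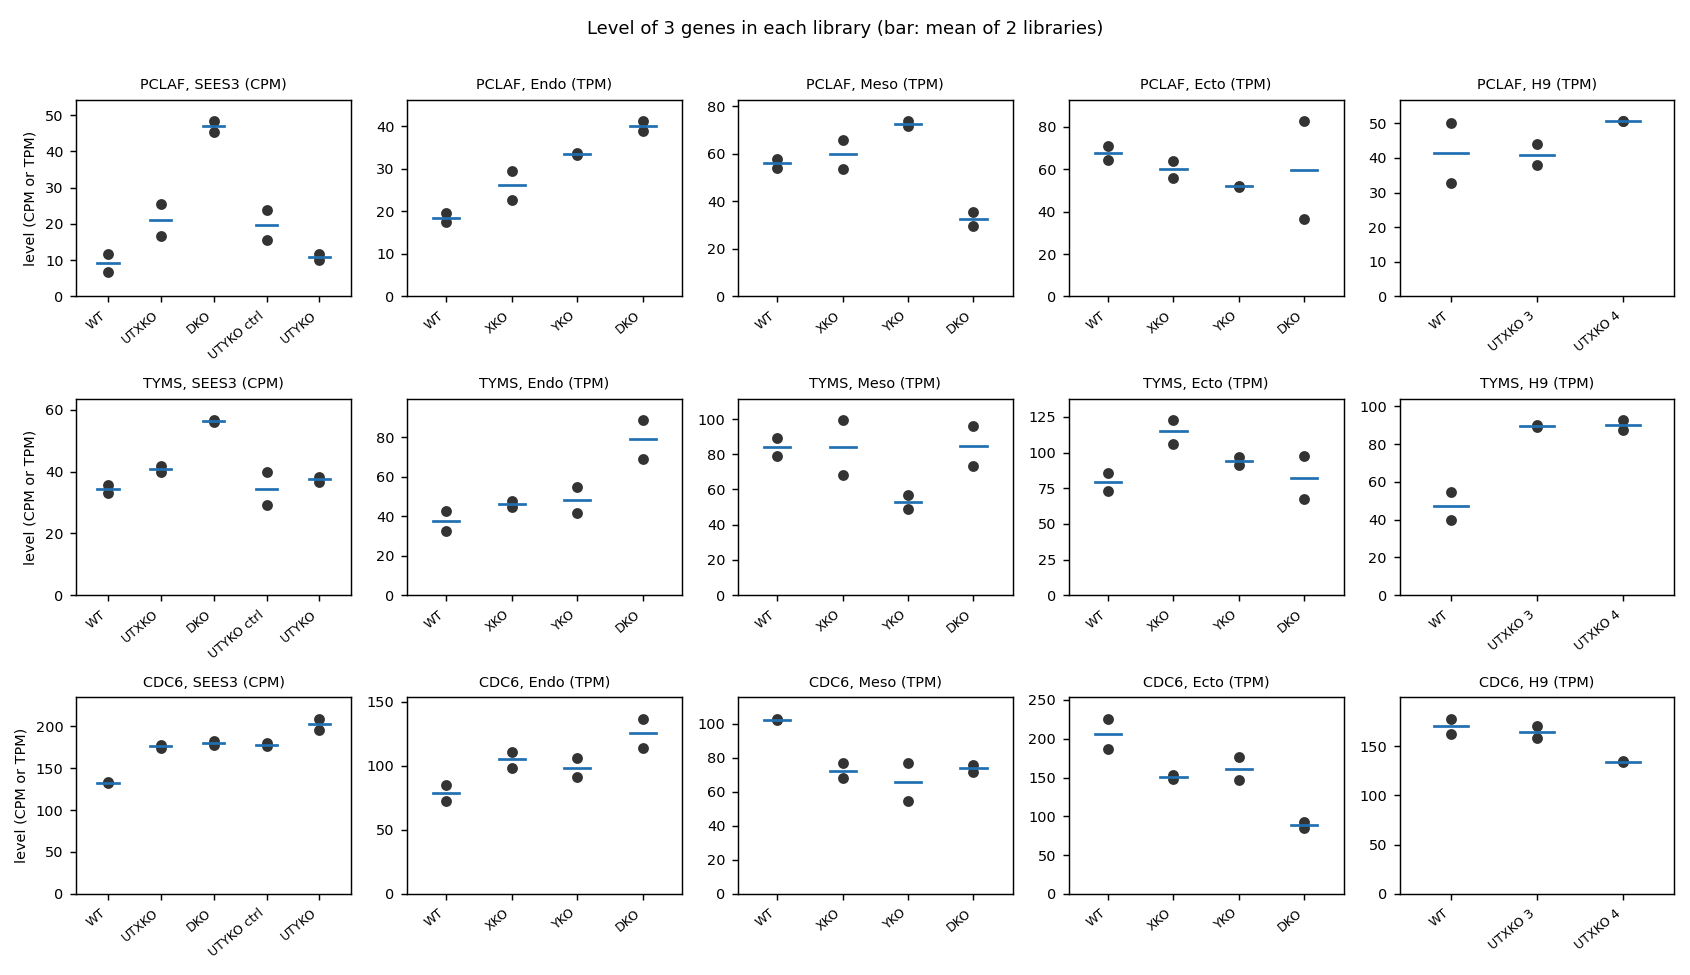
Level of PCLAF, TYMS and CDC6 in each library of the 20 groups, in CPM for undifferentiated SEES3 and in TPM elsewhere, with bars at the mean of 2 libraries and each axis starting at 0. PCLAF is highest in DKO in undifferentiated and Endo cells and lowest in DKO in Meso cells, and CDC6 is lowest in DKO in Ecto cells.

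Of 33 further replication genes 13 rose and 0 fell in UTXKO, 19 rose and 0 fell in DKO, and 10 rose and 1 fell in the UTYKO control. UHRF1, which reads hemimethylated DNA at the fork, rose in each, by 0.74 ± 0.13, 1.55 ± 0.10 and 1.31 ± 0.18. Of 37 further mitosis genes tested, 0 rose and 2 fell in UTXKO, 7 rose and 8 fell in DKO, and 0 rose and 9 fell in the UTYKO control; KIF2C, a microtubule depolymerase, fell by 0.41, 0.61 and 0.66 on the log2 scale. Of 10 cell cycle brakes tested, 0 rose and 2 fell in UTXKO, 3 rose and 1 fell in DKO, and 0 rose and 5 fell in the UTYKO control. CDKN1A, the inhibitor p21, was among those that fell in each (-0.90 ± 0.17, -1.71 ± 0.17 and -1.12 ± 0.20). Of the 15 drivers of the G1 to S transition, 3 rose and 1 fell in UTXKO, 8 rose and 3 fell in DKO, and 4 rose and 2 fell in the UTYKO control. CCND2, a D-type cyclin, fell by 1.14, 1.42 and 0.74, and SKP2, a ubiquitin ligase subunit that targets p27, rose by 0.45, 0.76 and 0.37.

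Neural progenitor markers rose in DKO cells without differentiation: 7 of 8 rose and 1 fell, with sums of 494 and 502 CPM against 141 and 120 CPM in WT and 66.6 and 66.5 CPM in the UTYKO control. Of 8 pluripotency markers 6 fell and 1 rose in DKO, with sums of 4342 and 4338 CPM against 5276 and 5011 CPM in WT. The part of these markers in the differences of the cycle genes was not tested. In bulk RNA, a smaller share of cells in a phase and less RNA per cell cannot be told apart.

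In Endo DKO cells the members that passed the test were all higher than in WT. Endo markers marked the cells as labelled, at summed levels of 33554 and 33383 TPM in WT, but stood at 10447 and 9848 TPM in DKO, where 6 of 8 fell. Of the 15 replication genes 7 rose and 0 fell in Endo DKO, and of the 21 mitosis genes 3 rose and 0 fell (limma on log2(TPM + 1), fitted over all 8 Endo libraries), beside 12.1% of 15660 genes tested (7.01% higher, 5.1% lower). The medians were 0.66, 0.24 and, over all genes, 0.116. Under median ratio scaling 4 replication genes rose, and of the mitosis genes 2 rose and 1, BUB1, fell. The summed replication level was 2798 and 2644 TPM in WT and 3562 and 3569 TPM in DKO, a ratio of the means of 1.31, and that of the mitosis genes was 4614 and 4458 against 5440 and 5215 TPM, a ratio of 1.17.

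MCM7 was at 320 and 336 TPM in Endo WT and 496 and 489 TPM in DKO (0.59 ± 0.11; adjusted p = 0.0117). RRM1 was at 143 and 158 against 263 and 235 TPM (0.72 ± 0.12; adjusted p = 0.00977), the smallest adjusted p of the members. PCLAF went from 19.6 and 17.5 to 41.2 and 38.8 TPM (1.07 ± 0.22; adjusted p = 0.0198), with XKO at 29.5 and 22.7 and YKO at 33.2 and 33.6 TPM in between. The other calls were rises of TYMS (1.05 ± 0.22), MCM2 (0.83 ± 0.20), RRM2 (0.66 ± 0.16), CDC6 (0.66 ± 0.16), PCNA (0.48 ± 0.12), CENPF (0.69 ± 0.16) and BIRC5 (0.67 ± 0.16), the gene of the chromosome passenger protein survivin. BUB1 was lower in DKO, at 117 and 125 against 185 and 174 TPM, without passing. PRIM1 differed within WT, at 27.7 and 5.19 TPM, and its difference of 0.92 has an SE of 0.77.

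By limma no member was called in Endo XKO (beside 0.0319% of genes) or Endo YKO (0.0255%), and 0 departed from the sum of both single knockouts (3.37%); 3, 6 and 9 members had an unadjusted p under 0.05. The DKO calls rested on all 4 libraries: leaving out either WT library or either DKO library left 0 to 2 of the 10, and 0 without the WT library that is the first in its table. Among genes outside the 36, the transcription factor E2F1, which drives replication genes, rose by 2.34 ± 0.28 in Endo DKO, UHRF1 by 1.38 ± 0.24, and the inhibitor CDKN1C, p57, by 1.27 ± 0.11. Marker lists of other cells moved in both directions. Of 8 pluripotency markers 1 rose and 5 fell, with sums of 4112 and 4124 TPM against 6542 and 6928 TPM in WT, and of 6 mesoderm markers tested 4 fell, with sums of 629 and 744 against 2501 and 2428 TPM. Of 8 neural progenitor markers 4 rose and 2 fell, with sums of 1170 and 1164 TPM against 871 and 946 TPM in WT, and of 8 neuron markers 4 rose, with sums of 237 and 170 against 27.9 and 19.6 TPM. Their part in the rise of the replication genes was not tested.

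**Figure D4:**
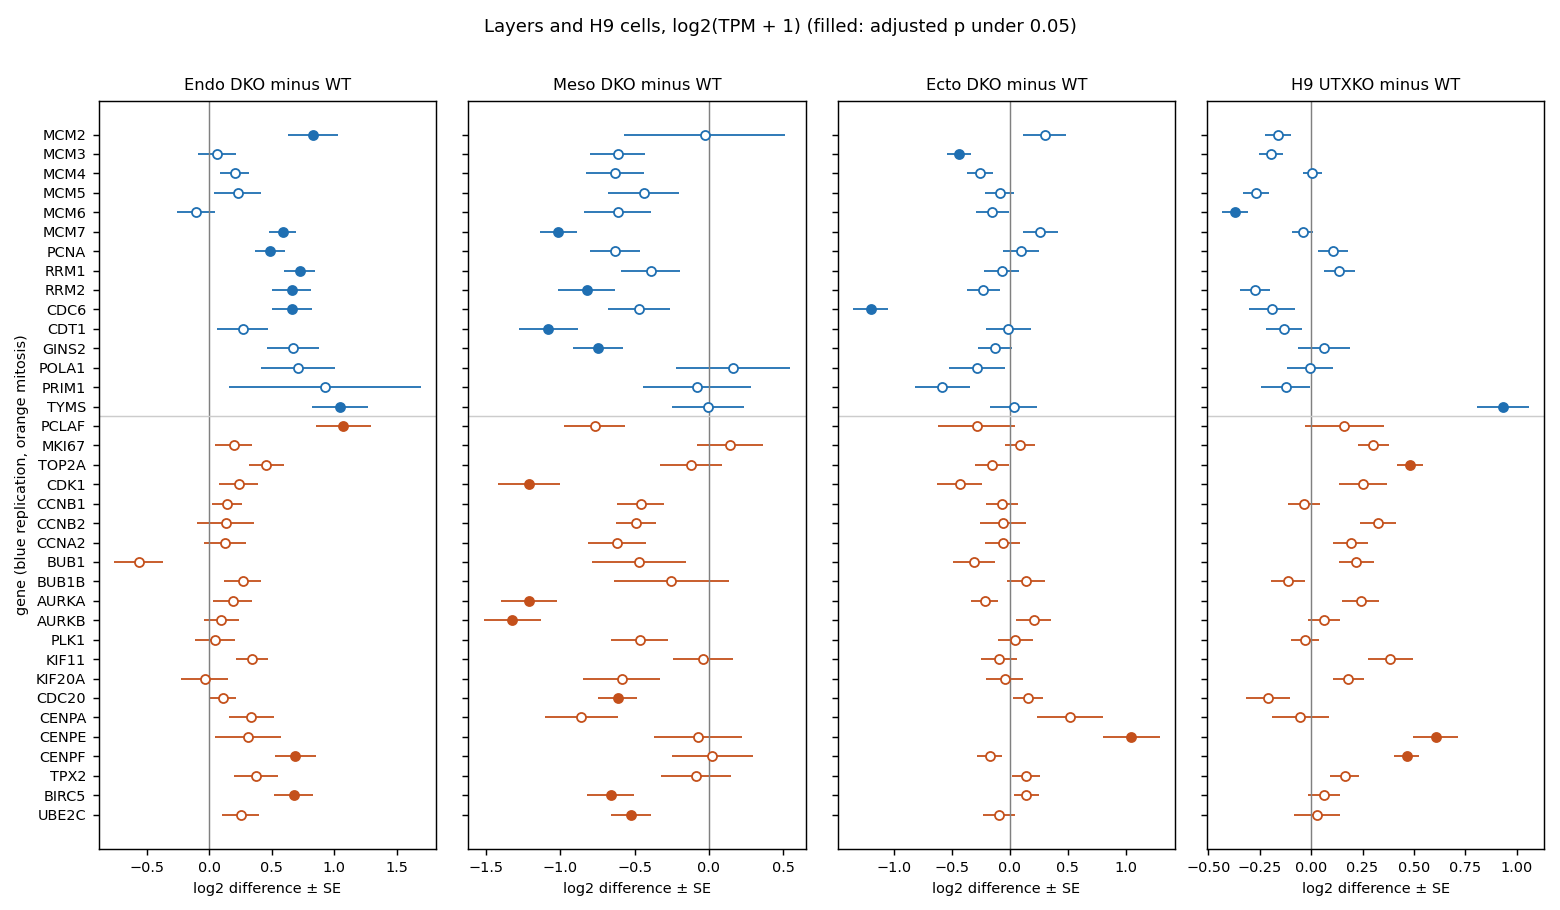
Log2 differences with SE bars for the 36 genes in Endo, Meso and Ecto DKO and in H9 UTXKO, each against WT of the same table; filled points have an adjusted p under 0.05 and each panel has its own horizontal scale. The filled points lie right of 0 in Endo, left of 0 in Meso, and on both sides in Ecto and H9.

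In Meso DKO cells the members that passed the test were all lower than in WT. Of the 15 replication genes 0 rose and 4 fell, and of the 21 mitosis genes 0 rose and 6 fell, beside 10.1% of 15125 genes tested, of which more rose (6.37%) than fell (3.7%). The medians were -0.61 and -0.49, against 0.214 over all genes. The summed replication level was 4462 and 4464 TPM in WT and 2919 and 2878 TPM in DKO, a ratio of the means of 0.65; the mitosis sums were 4987 and 5110 against 3595 and 3644 TPM, a ratio of 0.72.

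AURKB, the kinase of the chromosome passenger complex, was at 298 and 241 TPM in Meso WT and 116 and 98.1 TPM in DKO (-1.32 ± 0.19; adjusted p = 0.00652). CDK1, the mitotic cyclin-dependent kinase, was at 227 and 212 against 89.2 and 99.8 TPM (-1.21 ± 0.21; adjusted p = 0.0122), and AURKA, the spindle pole kinase, at 252 and 235 against 96.2 and 114 TPM (-1.21 ± 0.19; adjusted p = 0.00858). In none of these genes did the WT and DKO libraries overlap, which adds no support to calls made on these same libraries. MCM7 was at 686 and 618 TPM in WT, 666 and 690 in XKO, 636 and 640 in YKO and 326 and 319 in DKO (-1.01 ± 0.12; adjusted p = 0.00361). It was the single call of the 10 that held with each of the 4 libraries left out and under each other alternative. CDT1 fell by 1.08, RRM2 by 0.82, GINS2 by 0.75, BIRC5 by 0.66, CDC20 by 0.62 and UBE2C by 0.52 on the log2 scale; CDC20 and UBE2C act with the anaphase-promoting complex. TYMS was at 78.9 and 89.5 against 73.4 and 95.8 TPM, MCM2 at 169 and 179 against 178 and 164 TPM, and MKI67 at 124 and 120 against 144 and 126 TPM; in these 3 genes the libraries overlapped or DKO was higher.

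The size of the differences in Meso went with transcript length, although no member passed the test in XKO or YKO. MKI67 (12678 bases) was at 79.1 and 58.3 TPM in XKO and 77.7 and 56.8 TPM in YKO, below both WT libraries. UBE2C (914 bases) was at 439 and 431 TPM in XKO and 426 and 446 in YKO, above both WT libraries at 366 and 375 TPM. Across the 36 genes, Spearman's rho between the log2 difference and the length of the longest coding transcript was -0.64 in Meso XKO, -0.63 in Meso YKO and 0.49 in Meso DKO; across the 12974 tested genes with a length it was -0.40, -0.45 and 0.29. Genes are not independent replicates, and these values share libraries and base composition. Outside Meso it was -0.59 in Endo YKO (-0.34 across all genes), -0.56 in Ecto XKO (-0.03), -0.38 in Ecto YKO (-0.02) and 0.05 in Endo DKO (-0.02). In Meso DKO the 18 shorter members had a median of -0.62 and the 18 longer ones of -0.35. The part of transcript length, or of RNA quality, in these differences was not tested.

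**Figure D5:**
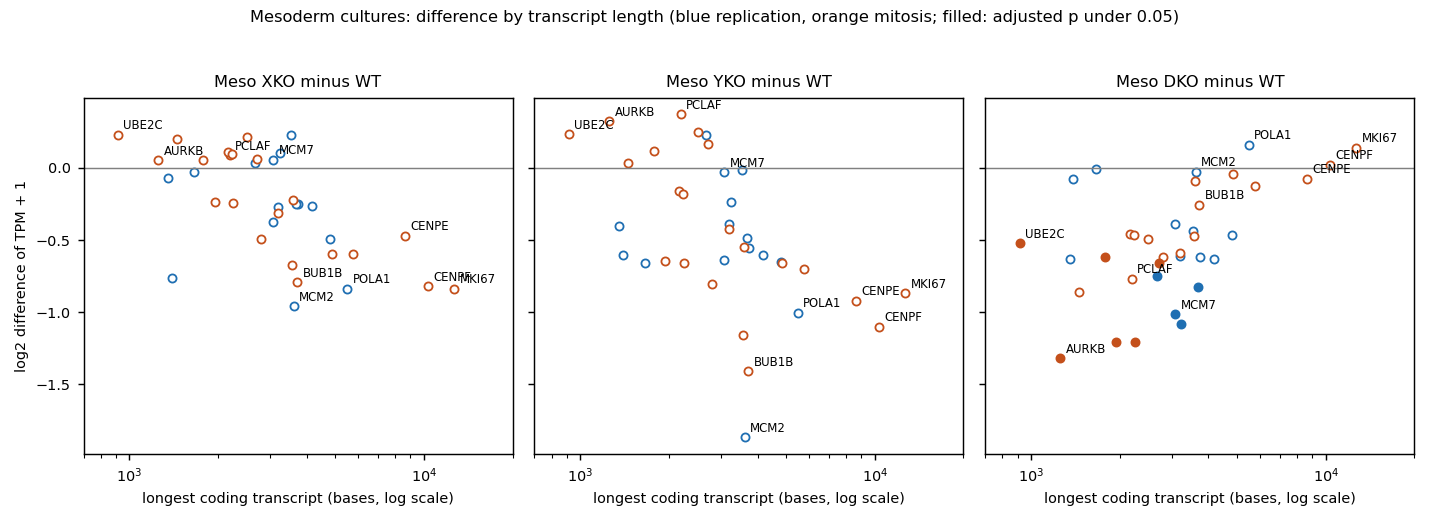
Log2 difference from WT of each of the 36 genes in Meso XKO, YKO and DKO against the length of its longest coding transcript in GENCODE release 29, on a log axis; filled points have an adjusted p under 0.05. Long transcripts such as MKI67, CENPF and POLA1 lie low in XKO and YKO and near 0 in DKO.

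By limma no member was called in Meso XKO (beside 0.0397% of genes) or Meso YKO (0.0132%), with 6 and 20 at an unadjusted p under 0.05. Library pairs lay apart there, MCM2 being at 91.2 and 23.9 TPM in YKO. With only the lower of these YKO libraries kept, 19 members were called, all lower than in WT, beside 18.9% of all genes (432 higher, 2399 lower); the lone YKO library is there assumed to vary like the libraries of the other groups. Against the sum of both single knockouts, 17 members departed in Meso DKO, beside 28.2% of all genes (21.8% above, 6.43% below). MCM2, POLA1, MKI67, TOP2A, BUB1B, KIF11, CENPE and CENPF lay above the sum, and MCM7, CDT1, GINS2, PCLAF, CCNB2, AURKB, CDC20, BIRC5 and UBE2C below it. The median of all genes was itself 0.746 above the sum, and 0.132 after median ratio scaling, under which 3 members lay above and 17 below, beside 24.8% of all genes called. The 8 genes above the sum have longest coding transcripts of 3622 to 12678 bases and the 9 below it of 914 to 3240 bases, and across the 36 genes rho with length was 0.66.

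Of 33 further replication genes in Meso DKO 0 rose and 6 fell, led by TK1, thymidine kinase (-1.64 ± 0.16; adjusted p = 0.00169). Of 36 further mitosis genes tested 0 rose and 5 fell, led by CKS1B (-1.42 ± 0.15), a small subunit of cyclin-dependent kinases. Of 15 drivers of the G1 to S transition 1 rose and 1 fell, the latter CCNE1, cyclin E1 (-1.03 ± 0.17), and of 10 checkpoint kinases 0 rose and 2 fell, among them CHEK1 (-1.22 ± 0.20). Of 11 brakes tested 2 rose and 0 fell: CDKN2B, p15, and CDKN1C rose by 3.13 ± 0.51 and 1.16 ± 0.28. Mesoderm markers summed to 3940 and 3707 TPM in WT and 2825 and 3052 TPM in DKO, where 4 of 8 fell. Neuron markers summed to 105 and 60.5 TPM in WT and to 891 and 1135 TPM in DKO, where 4 of 7 tested rose and 0 fell; 4 of the 8 were at 0 in both WT libraries. Pluripotency markers summed to 1266 and 1333 against 962 and 988 TPM. The part of these markers in the fall of the cycle genes was not tested.

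Both DKO libraries lay above both WT libraries in Endo for 26 of the 36 genes and below in 1, beside 33.6% and 22.8% of all genes. In Meso they lay above for 2 and below for 27, beside 41.2% and 21%. For 20 genes the position was above in Endo and below in Meso, with CDK1 at 209 and 174 against 172 and 152 TPM in Endo. The share of all genes with both positions was not counted, so the 20 cannot be called particular to the members. The layers were deposited as separate tables and this difference was not tested.

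In Ecto cells 3 of the 36 members passed the test in DKO. In DKO 0 replication genes rose and 2 fell, and 1 mitosis gene rose and 0 fell, beside 8.03% of 15433 genes tested (4.18% higher, 3.86% lower); the medians were -0.13, -0.06 and, over all genes, 0.077. CDC6 (ENSG00000094804; GRCh38, chr17:40287633-40304657, plus strand) was at 226 and 187 TPM in WT, 153 and 148 in XKO, 147 and 176 in YKO and 84.4 and 93.1 in DKO (-1.20 ± 0.15; adjusted p = 0.00344). All knockout libraries of CDC6 lay below WT, with DKO lowest, and the DKO call held with each library left out. XKO and YKO were not called, and the share of all genes in this order was not counted. The position of DKO adds no support to a call made on these same libraries. MCM3 fell from 679 and 681 to 482 and 523 TPM (-0.44 ± 0.10; adjusted p = 0.0442). CENPE, the kinesin that moves chromosomes to the metaphase plate, was at 63.3 and 58.8 TPM in WT and 107 and 151 TPM in DKO (1.04 ± 0.24; adjusted p = 0.041), and both calls were lost with any of the 4 libraries left out. PCLAF was at 36.7 and 82.8 TPM in DKO, on both sides of WT at 71 and 64.4 TPM.

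By limma no member was called in Ecto XKO (beside 0.356% of genes) or Ecto YKO (0.0842%), and 0 departed from the sum of both single knockouts (1.53%); 3, 2 and 8 members had an unadjusted p under 0.05. Of 33 further replication genes 1 fell in Ecto DKO, DTL (-0.73 ± 0.17), a ubiquitin ligase adaptor that acts on CDT1. Of 15 drivers of the G1 to S transition 1 rose and 2 fell, CCND2 being higher by 1.08 and CCND1 lower (-0.85 ± 0.10). Pluripotency markers fell, 6 of 7 tested, from sums of 5458 and 5543 to 2308 and 2128 TPM. Fibroblast markers summed to 64 and 74.9 TPM in WT and to 660 and 455 TPM in DKO, 3 of 8 having risen and 1 fallen. The part of these markers in the CDC6 difference was not tested.

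In H9 cells, 5 members were called in UTXKO. Against WT, the 4 UTXKO libraries of both sets had 1 replication gene higher and 1 lower, and 3 mitosis genes higher and 0 lower, beside 4.58% of 17148 genes tested (2.81% higher, 1.77% lower); the medians were -0.12, 0.18 and, over all genes, 0.09. TYMS was at 39.6 and 54.7 TPM in WT, at 90.3 and 89.3 in set 3 and at 87.3 and 92.9 in set 4 (0.93 ± 0.13; adjusted p = 0.0106). TOP2A was at 403 and 451 TPM in WT and from 573 to 622 TPM in UTXKO (0.48 ± 0.06; adjusted p = 0.0105). CENPF and CENPE rose by 0.46 ± 0.06 and 0.60 ± 0.11, and MCM6 fell from 459 and 422 TPM to between 326 and 360 TPM (-0.37 ± 0.06; adjusted p = 0.0218). Libraries of WT and UTXKO did not overlap in any of the 5 genes, but these were picked by a test on the same libraries. The lack of overlap therefore adds no support. No member was called with either set alone by limma, and 1, TYMS, was called without the WT library that is the first in its table.

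Of the replication genes that rose in SEES3 UTXKO, none was called in H9: RRM2 was at 202 and 211 TPM in WT and 159 to 183 TPM in UTXKO, and CDC6 at 178 and 162 against 134 to 170 TPM. PCLAF was at 50.1 and 32.8 TPM in WT and 37.9 to 50.7 TPM in UTXKO. The lines were quantified in separate tables, and the difference between them was not tested. Of 33 further replication genes in H9, 0 rose and TK1 fell (-0.42 ± 0.08), and of 36 further mitosis genes tested 4 rose, led by the condensin subunit NCAPG (0.53 ± 0.07), and 0 fell.

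On the TPM scale, where genes can be compared, PCNA was the most abundant member in each of the 15 groups, with means from 562 TPM in Endo XKO to 1221 TPM in Ecto XKO. POLA1 or PRIM1 was lowest in the 12 layer groups, between 9.24 and 39.4 TPM, and PCLAF or CENPA in the 3 H9 groups. In WT cells the replication genes summed to a mean of 2721 TPM in Endo, 4463 in Meso, 4689 in Ecto and 4790 in H9, and the mitosis genes to 4536, 5048, 5749 and 5096 TPM, levels set side by side across separately normalised tables without a test. Meso and H9 WT means of the mitosis genes lay within the spread of their libraries.

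Grouping by promoter match largely repeated the contrast of both sets. Genes with an E2F site and no CHR were replication genes except PCLAF, and those with a CHR and no E2F site were all mitosis genes. The 11 genes with an E2F site and no CHR had median log2 differences of 0.26 in undifferentiated UTXKO (5 rose, 1 fell) and 0.38 in undifferentiated DKO (8 rose, 2 fell). In the UTYKO control their median was 0.33 (6 rose, 0 fell) and in Endo DKO 0.67 (6 rose, 0 fell). The 9 genes with a CHR and no E2F site had, in the same order, medians of -0.18 (0 rose, 0 fell), -0.12 (1 rose, 4 fell), -0.25 (0 rose, 2 fell) and 0.20 (1 rose, 0 fell). Of all genes tested, 6.2% were higher and 6.31% lower in UTXKO, and 23.5% and 23.4% in DKO. These shares were 10.3% and 8.79% in the UTYKO control and 7.01% and 5.1% in Endo DKO. In Meso DKO the medians were -0.61 (0 rose, 3 fell) and -0.25 (0 rose, 1 fell), beside 6.37% of all genes higher and 3.7% lower. In Ecto DKO they were -0.13 (0 rose, 2 fell) and -0.06 (0 rose, 0 fell), beside 4.18% of all genes higher and 3.86% lower. In H9 UTXKO they were -0.04 (1 rose, 0 fell) and 0.30 (2 rose, 0 fell), beside 2.81% and 1.77%. There the genes with a CHR had the higher median. In undifferentiated DKO, CDT1 and PRIM1 have an E2F match and fell, and CENPF has a CHR and no E2F match and rose.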

How the data were processed

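RNA was measured by sequencing of poly(A)-selected, strand-directional libraries in 40 libraries, 2 in each of 20 groups, per the labels' protocols. The authors deposited counts per gene for undifferentiated SEES3 cells and TPM for the layers and H9; the submitters' processing notes name STAR, RSEM, featureCounts, edgeR and GRCh38/hg38, with no version, and the strand setting and annotation release were not given there. The 12 columns that match no sample were not used. The members and gene lists were chosen with earlier results of these data known.

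CPM is a count divided by the library's total count, which ran from 5781357 to 14973722. For the counts, edgeR 4.0.16 under R 4.3.3 gave the quasi-likelihood test, and DESeq2 1.42.0 served as an alternative. TPM were tested with limma 3.58.1 on log2(TPM + 1) over genes at 1 TPM or more in at least 2 libraries, which understates changes of low genes. The threshold was an adjusted p of 0.05 over all genes tested, and the scripts were tested on simulated data. Every edgeR SE is the log2 difference divided by the root of its F statistic. Departure from the sum is the DKO difference minus both single knockout differences. All members are described; other lists are given by counts and at most 3 called genes with the smallest adjusted p, and the genes named beyond that (KIF2C and CCND2 in the UTYKO control, SKP2 in DKO and the UTYKO control, CCNE1, CCND1) were chosen after their values were seen. Coordinates and transcript lengths are from GENCODE 29, matched by gene ID without version.

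The alternatives were other scaling, pseudocount and filters, another tool, other sets of libraries, a replicate block and each library left out.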

Additional observations from a re-analysis of the deposited data

Results flagged for a closer look

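In undifferentiated SEES3 cells, PCLAF in DKO lay 1.98 above the sum of both single knockout differences on the log2 scale, by a test of that departure. The sum includes a UTYKO difference of -0.86 that did not pass and was taken against the UTYKO control, not WT.

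In Meso cells the same test gave departures above the sum for MCM2 (2.80), POLA1 (2.00), BUB1B (1.95), CENPF (1.95), MKI67 (1.85), CENPE (1.32), KIF11 (1.22) and TOP2A (1.18). Departures below the sum were those of AURKB (-1.70), PCLAF (-1.23), MCM7 (-1.04), GINS2 (-1.01), UBE2C (-0.99), CCNB2 (-0.96), CDT1 (-0.95), BIRC5 (-0.89) and CDC20 (-0.79). The median over all genes was 0.746, so values above 0 are to be read against that shift.

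For 20 genes both DKO libraries lay above both WT libraries in Endo and below them in Meso. The share of all genes with both positions was not counted, and the difference between the layers was not tested. These positions do not require a call in either layer. The log2 differences in Endo and then in Meso were, for replication genes, 0.20 and -0.63 for MCM4, 0.23 and -0.44 for MCM5, 0.59 and -1.01 for MCM7, 0.48 and -0.63 for PCNA, 0.72 and -0.39 for RRM1, 0.66 and -0.82 for RRM2, 0.66 and -0.47 for CDC6, 0.27 and -1.08 for CDT1, and 0.67 and -0.75 for GINS2. Among mitosis genes they were 1.07 and -0.77 for PCLAF, 0.45 and -0.12 for TOP2A, 0.23 and -1.21 for CDK1, 0.14 and -0.46 for CCNB1, 0.27 and -0.25 for BUB1B, 0.19 and -1.21 for AURKA, 0.10 and -1.32 for AURKB, 0.11 and -0.61 for CDC20, 0.34 and -0.86 for CENPA, 0.67 and -0.66 for BIRC5, and 0.25 and -0.52 for UBE2C.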

How the results depend on the processing

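In 1 fit of 10 libraries, 4 members were called in UTXKO, 15 in DKO and 5 between DKO and UTXKO, where DESeq2 called 8. With the UTYKO control as reference, chosen after seeing the data, 1 and 8 were called, and signs turned in UTXKO for RRM2 (-0.021), MCM4 (-0.025), CDC6 (-0.035) and MCM5 (-0.48), and in DKO for RRM2 (-0.21), MCM2 (-0.11), MCM7 (-0.12), MCM4 (-0.10), CDC6 (-0.033), MCM5 (-0.58), BUB1 (0.028), CDK1 (0.18) and CCNB2 (0.23). A replicate block gave 1 call for UTYKO and 2 departures from the sum in SEES3, and left 10 calls in UTXKO and 23 in DKO. Across genes, the difference between libraries 1 and 2 of the reference correlated with that of the knockout at 0.026 in UTXKO, 0.003 in DKO and 0.242 in UTYKO. Over all genes, the block moved the UTYKO calls from 14 higher and 75 lower to 144 and 232. The numbers do not establish a pairing in UTXKO and DKO, and for UTYKO the labels do not say whether there is one. For the TPM no paired analysis was possible because their columns carry no replicate number. In Meso DKO, median ratio scaling and a fit of 4 libraries each called 18; in H9, 3 were called without the filter and 0 with set 3 or set 4 alone. Leaving out 1 library gave 0 to 2 calls for UTYKO, 4 to 14 for DKO against UTXKO, 5 to 22 for the UTYKO control, 1 to 9 departures in SEES3, 1 to 2 calls in Endo DKO and 0 to 2 departures there, 0 to 19 in Meso YKO, 1 to 2 in Meso DKO and 3 to 21 departures there, 1 to 2 in Ecto DKO and 1 to 5 in H9. Calls kept with each library left out were 6 of 10 in UTXKO, 15 of 23 in DKO, 0 of 10 in Endo DKO, 1 of 10 in Meso DKO, 1 of 3 in Ecto DKO and 1 of 5 in H9. Median ratio scaling moved the genes called higher and lower from 1098 and 798 to 886 and 973 in Endo DKO, 963 and 560 to 813 and 714 in Meso DKO, 3291 and 972 to 1792 and 1963 for Meso departures, and 482 and 303 to 295 and 452 in H9. The TPM give no depth.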
